A study of Homo sapiens with 8 samples.

Results

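Glycogen is made from glucose 6-phosphate by a short series of enzymes. Out of 20163 protein-coding genes, 8 linked to this route were examined for peaks of HIF-1β binding. GBE1, GYS1, PGM1, PGM2, UGP2, PPP1R3B, PPP1R3C and PYGL were chosen by name, with earlier results of these data known. Every peak that overlapped the body of one of them, extended by 25 kb on each side, was taken. HIF-1β, the subunit common to the HIF transcription factors, was immunoprecipitated with a rabbit antibody from 4 established human cancer cell lines, PC-3 (prostate), T47D (breast), A549 (lung) and HCT-116 (colorectal), and the bound DNA was sequenced (ChIP-seq). All cells had been kept at 0.5% oxygen for 16 h, and each line had 2 replicates, numbered 1 and 2 in PC-3 and T47D and 2 and 3 in A549 and HCT-116. The labels do not say whether replicates came from separate cultures, so the spread between them may be technical. Neither a normoxic library nor a control library was analysed here, so no value below compares hypoxia with normal oxygen.

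The authors called peaks in each library separately, and each list gives the interval and a score for every peak on GRCh37 (hg19). The lists held between 1042 peaks (PC-3 replicate 1) and 3790 peaks (HCT-116 replicate 2), and the lowest score was close to 50 in every list. They hold no reads, so sequencing depth is unknown. Scores have no common scale between libraries, and a peak is therefore described by its rank and by the percent of peaks in the same library that scored at least as high, so that a low percent is a strong peak. The same rank gives a higher percent in a shorter list. A site is a region where peaks of both replicates of a line overlapped by at least 1 bp.

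As background, the phosphoglucomutase PGM1 interconverts glucose 6-phosphate and glucose 1-phosphate, and PGM2 is a related enzyme. UGP2 turns glucose 1-phosphate into UDP-glucose. Glycogen synthase (GYS1 is the muscle form, used in many tissues) adds the glucose to a growing chain, and the branching enzyme GBE1 makes the branches. PPP1R3B and PPP1R3C tether protein phosphatase 1 to glycogen, which favours synthesis over breakdown. PYGL, the liver form of glycogen phosphorylase, breaks glycogen down, so the list is not one of synthesis alone. Hypoxic cells are known to store glycogen, and HIF binds DNA as a dimer of an α subunit with HIF-1β at a short core sequence, ACGTG or GCGTG. Only HIF-1β was immunoprecipitated in these libraries, so its partner at a peak was not measured.

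Reference sequence under the peaks is shown for 5 of the genes, because the results below turn on where these peaks lie. Each is a window of 200 bases of GRCh37 near the middle of the interval shared by all peaks at that gene start, moved off annotated untranslated regions and written 5′ to 3′ on the strand of the gene. Capitals mark ACGTG or GCGTG, or CACGT or CACGC where the core lies on the other strand. The PGM1 window (chr1:64059280-64059479, plus strand) has its middle in exon 1, holds 3 cores and is covered by a peak of all 8 libraries. The GYS1 window (chr19:49496619-49496818, minus strand) lies upstream of the start, holds 2 cores and is covered by 5 peaks. The GBE1 window (chr3:81810408-81810607, minus strand) has its middle in intron 1, holds 1 core and is covered by all 8 libraries. The PPP1R3C window (chr10:93392950-93393149, minus strand) lies upstream, holds 3 cores and is covered by 4 peaks. The PYGL window (chr14:51411266-51411465, minus strand) lies upstream, is covered by 6 peaks and holds no core.
PGM1: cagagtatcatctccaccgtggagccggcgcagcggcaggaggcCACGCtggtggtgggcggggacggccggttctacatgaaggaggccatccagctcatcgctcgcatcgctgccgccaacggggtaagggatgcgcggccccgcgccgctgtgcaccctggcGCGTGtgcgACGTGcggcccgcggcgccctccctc
GYS1: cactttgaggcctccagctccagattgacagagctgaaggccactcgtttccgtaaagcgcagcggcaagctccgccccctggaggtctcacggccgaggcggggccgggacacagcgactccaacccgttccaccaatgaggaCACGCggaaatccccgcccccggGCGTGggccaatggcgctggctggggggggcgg
GBE1: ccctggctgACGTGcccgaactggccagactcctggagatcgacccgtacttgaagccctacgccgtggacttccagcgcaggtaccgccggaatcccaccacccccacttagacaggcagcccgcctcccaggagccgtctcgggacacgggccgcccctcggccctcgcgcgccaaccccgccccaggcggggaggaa
PPP1R3C: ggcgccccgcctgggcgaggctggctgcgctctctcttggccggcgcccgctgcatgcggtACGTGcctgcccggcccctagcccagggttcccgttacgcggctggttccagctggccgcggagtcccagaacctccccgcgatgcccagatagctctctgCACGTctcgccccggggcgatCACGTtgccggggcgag
PYGL: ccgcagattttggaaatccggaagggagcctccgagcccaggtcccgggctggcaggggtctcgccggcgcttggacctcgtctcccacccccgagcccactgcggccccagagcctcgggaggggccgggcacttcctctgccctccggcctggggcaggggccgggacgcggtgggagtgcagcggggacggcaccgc

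HIF-1β sites lay at the starts of GBE1 and PGM1 in all 4 lines, and at those of GYS1, PPP1R3B, PPP1R3C and PYGL in 2 lines each. The share of all genes with a site in any line was not counted. Within the extended gene bodies, 2 of 8 genes had a site in PC-3 cells (GBE1 and PGM1), against 7.07% of all protein-coding genes. In T47D cells there were 4 (GBE1, GYS1, PGM1 and PPP1R3C), where 16.0% of all genes had one. The 5 in A549 cells were GBE1, PGM1, PPP1R3B, PPP1R3C and PYGL, against 6.01% of all genes, and the 5 in HCT-116 cells were GBE1, GYS1, PGM1, PPP1R3B and PYGL, against 14.2%. A site in every line was present at 2 of 8 members and at 2.46% of all genes. These shares of all genes are not matched for gene length, and GBE1 spans 271943 bp while PPP1R3C spans 4630 bp. The members were chosen with earlier results of these data known, so a higher share among them is not independent of that choice.

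The counts were the same when only sites within 2 kb of an annotated start of the gene itself were taken. The members have between 1 (PPP1R3C) and 35 (UGP2) annotated starts, and the shares of all genes are not matched for that number. The members with such a site were again 2, 4, 5 and 5 of 8 in PC-3, T47D, A549 and HCT-116 cells, or 25%, 50%, 62.5% and 62.5%. The shares over all protein-coding genes were 2.57% in PC-3, 7.70% in T47D, 2.07% in A549 and 6.84% in HCT-116 cells, and 1.0% of genes had one in every line, against the same 2 members. The count in PC-3 cells rested on replicate 1, the shortest list, since a peak of either replicate gave 5 members and replicate 2 alone gave 5 within 25 kb and 4 within 2 kb of a start. In A549 cells PPP1R3B and PYGL dropped out when only the higher-scoring 50% of each list was used, which left 3 members.

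**Figure D1:**
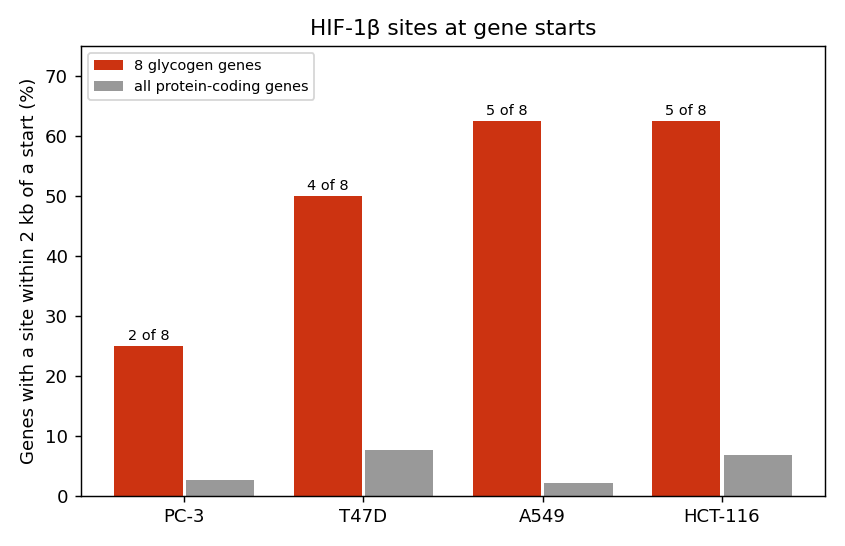
Bars give the percent of genes with a HIF-1β site (peaks of both replicates) within 2 kb of a start, in each of the 4 lines, for the 8 glycogen genes and for all 20163 protein-coding genes. The glycogen genes reach between 25% in PC-3 and 62.5% in A549 and HCT-116 cells, and all genes between 2.07% in A549 and 7.70% in T47D cells. The 8 genes were chosen with earlier results of these data known.

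In all, 42 of the 18645 peaks of the 8 lists fell in the extended gene bodies, and 36 of them covered the start of the canonical transcript. A peak of the other replicate overlapped 34 of the 42. In A549 cells every member peak was matched (5 of 5 in both replicates), and in T47D cells 4 of 4 in replicate 1 and 4 of 6 in replicate 2 were. In HCT-116 cells the numbers were 6 of 7 and 6 of 6. PC-3 cells matched least, with 2 of 3 in replicate 1 and 2 of 6 in replicate 2, and over their whole lists 93.1% and 33.6% of peaks were matched.

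PGM1 (ENSG00000079739.17_10, chr1:64059082-64125916, plus strand) was bound in all 8 libraries at its start. Peaks lay within 64058601 to 64060546 on chromosome 1, a region of 1946 bp in which ITGB3BP, which encodes a nuclear protein, also starts, so the peaks cannot be assigned to either gene alone. Midpoints were 312 to 585 bp inside PGM1, in exon 1 or intron 1. In PC-3 cells the peak scored 162 in replicate 1 (rank 258, 24.8% of peaks scoring at least as high) and 445 in replicate 2 (rank 190, 6.57%). T47D cells gave 334 (rank 227, 7.42%) and 340 (rank 263, 9.04%). The 2 T47D libraries were close to each other, whereas those of PC-3 cells were far apart. A549 cells gave 134 (rank 628, 35.6%) and 156 (rank 360, 28.3%), and HCT-116 cells gave 813 (rank 135, 3.56%) and 314 (rank 226, 11.8%). A549 cells held the weakest PGM1 peaks of the 4 lines, by percent and by rank in the list, and did not overlap any other line on either scale.

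By line, the mean percent for PGM1 was 7.69 ± 5.83 in HCT-116, 8.23 ± 1.15 in T47D, 15.7 ± 12.9 in PC-3 and 32.0 ± 5.11 in A549 cells (SD, n = 2 each). HCT-116 and T47D overlapped, as did T47D and PC-3, and PC-3 and A549, neighbours in this order, did not. By mean rank in the list the order was HCT-116 (180.5), PC-3 (224), T47D (245) and A549 (494). Whether lines differed was tested by comparing the real pairs of replicates with all 105 possible pairings of the 8 libraries, on the log10 of the percent, for every region with a peak in all 8 libraries. At PGM1 no difference between lines beyond the spread of replicates was called (exact permutation test, one-sided, p = 0.257, adjusted p = 0.340 by Benjamini-Hochberg over 233 regions). Of those 233 regions, 0 were called (0%), 70 had an unadjusted p under 0.05, and 19 reached the smallest p of 0.00952, where 45 would have been needed for a call. The test thus could not call fewer than 45 regions, and limma's moderated F-test on the same values, added after the data were seen, called 152 (65.2%), PGM1 among them (adjusted p = 0.0268).

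The lists also differed as wholes at the 233 regions bound in every library. The median percent over these regions was 24.8 and 8.82 in PC-3, 6.83 and 6.91 in T47D, 24.8 and 27.7 in A549 and 4.30 and 8.57 in HCT-116 cells. The percent of the PGM1 peak was between 0.745 and 1.44 times this median in every library. In A549 cells it was 1.44 and 1.02 times the median of these regions, which is not the median of the whole list. With each library centred on its median, limma called 140 regions (60.1%), and PGM1 was not among them (adjusted p = 0.663, and 0.568 in the exact permutation test).

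PGM2 and UGP2 had no peak within 25 kb in any of the 8 libraries. For PGM2 (ENSG00000169299.14_9, chr4:37828282-37864558, plus strand), the nearest peak lay between 139150 bp (T47D replicate 2) and 3456761 bp (A549 replicate 3) from the gene. UGP2 (ENSG00000169764.16_16, chr2:64068086-64118696, plus strand) had its nearest peak between 251532 and 251909 bp away in the 6 libraries of PC-3, T47D and HCT-116 cells, and 2822802 and 751436 bp away in A549 replicates 2 and 3. These were the only members without a peak, although the core sequence was present at both starts: in RefSeq promoters (GRCh38.p14, 250 bases before to 50 after the start), PGM2 held 3 cores, and the 2 UGP2 entries held 2 and 1. Of 35116 such promoters 48.4% held a core. Of the 10 entries of the 7 members found there, 7 held a core. At PGM1 1 of 3 entries held it, and PYGL, which had peaks, held 0.

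GYS1 (ENSG00000104812.15_9, chr19:49471387-49496567, minus strand) had a site at its start in T47D and HCT-116 cells. The peaks lay within 49496053 to 49497605 on chromosome 19, 1553 bp in which RUVBL2, a helicase of chromatin complexes, also starts, and their midpoints were at -335 to -169 bp, where negative distances lie upstream. In T47D cells the scores were 146 (rank 704, 23.0%) and 107 (rank 1133, 38.9%). In HCT-116 cells they were 305 (rank 480, 12.7%) and 175 (rank 473, 24.7%). A single replicate of PC-3 cells, replicate 2, had a peak there, which scored 90.6 (rank 1391, 48.1%), and the A549 lists had none. Elsewhere the nearest peak was 152024 bp from the gene in PC-3 replicate 1 and 92114 and 152235 bp in the A549 replicates. The mean percent was 18.7 ± 8.53 in HCT-116 and 31.0 ± 11.3 in T47D cells (SD, n = 2 each), and their values overlapped, although by rank in the list they did not.

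GBE1 (ENSG00000114480.13_11, chr3:81538854-81810796, minus strand) had the strongest peaks of the members bound in every line. All 8 libraries had a peak over its start, within 81809508 to 81811544 on chromosome 3 (2037 bp), in which no other protein-coding gene starts, and the midpoints were 138 to 377 bp inside the gene, in exon 1 or intron 1. PC-3 cells gave scores of 499 (rank 64, 6.14%) and 1218 (rank 50, 1.73%), and T47D cells gave 542 (rank 114, 3.72%) and 681 (rank 108, 3.71%). A549 cells gave 678 (rank 86, 4.86%) and 780 (rank 40, 3.15%), and HCT-116 cells 1741 (rank 50, 1.32%) and 1150 (rank 41, 2.14%). The GBE1 peak thus ranked among the first 114 of every list, and within the top 6.14% of each.

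The mean percent for GBE1 was 1.73 ± 0.583 in HCT-116, 3.72 ± 0.00914 in T47D, 3.94 ± 3.12 in PC-3 and 4.01 ± 1.21 in A549 cells (SD, n = 2 each). HCT-116 and T47D, the first neighbours in this order, did not overlap, whereas T47D with PC-3 and PC-3 with A549 did. By mean rank in the list T47D came last, with 45.5 in HCT-116, 57 in PC-3, 63 in A549 and 111 in T47D cells, and its ranks did not overlap those of any other line. Again no difference between lines beyond the spread of replicates was called (exact permutation test, one-sided, p = 0.448, adjusted p = 0.516 over the same 233 regions), nor by limma (adjusted p = 0.401). Against the median of the 233 regions in the same library, the percent of the GBE1 peak was 0.248 and 0.196 times as high in PC-3, 0.545 and 0.537 in T47D, 0.196 and 0.114 in A549 and 0.307 and 0.250 in HCT-116 cells. Relative to this median of commonly bound regions T47D cells had the weakest GBE1 peaks, unlike by the percent of the whole list. With each library centred on its median, limma called the GBE1 region (adjusted p = 0.00652) and the exact permutation test did not (p = 0.0190, adjusted p = 0.0752). In each library the GBE1 peak ranked above the PGM1 peak.

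**Figure D2:**
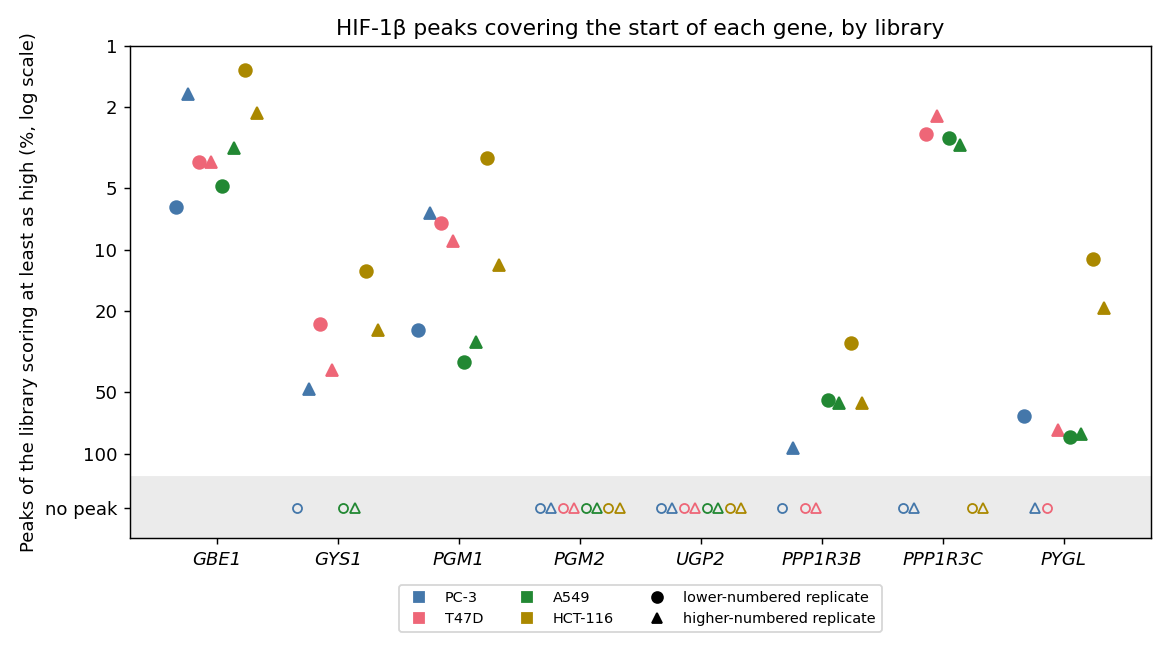
Each point is the peak over the start of a gene in 1 library, and the vertical axis gives the percent of that library's peaks scoring at least as high, on a log scale with strong peaks at the top. Colours mark the 4 lines, circles and triangles the lower-numbered and higher-numbered replicate, and open symbols in the grey band libraries with no peak. GBE1 lies between 1.32% and 6.14% in all 8 libraries, PPP1R3C between 2.20% and 3.07% in the 4 libraries of T47D and A549 and is absent from the other 4, and PGM2 and UGP2 have no peak.

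PPP1R3C (ENSG00000119938.9_9, chr10:93388199-93392828, minus strand), a glycogen-targeting subunit of protein phosphatase 1, had strong peaks in T47D and A549 cells and none in PC-3 and HCT-116 cells. The peaks covered its start, within 93392294 to 93393813 on chromosome 10 (1520 bp), with midpoints at -262 to -189 bp. T47D cells gave scores of 697 (rank 83, 2.71%) and 1023 (rank 64, 2.20%), and A549 cells 855 (rank 50, 2.83%) and 797 (rank 39, 3.07%). The means were 2.46 ± 0.362% in T47D and 2.95 ± 0.172% in A549 cells (SD, n = 2 each), and the values of these lines did not overlap. By rank in the list the order was the opposite, with a mean of 44.5 in A549 and 73.5 in T47D cells, so no order of the lines is given. In the 4 other libraries the nearest peak was far from the gene, at 3595331 and 3581242 bp in PC-3 and 274850 and 290190 bp in HCT-116 cells. A peak below the lowest listed score, close to 50, would not appear in the lists, so binding weaker than that was not measured.

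The pattern of PPP1R3C was set against other regions as a description with no test, since the comparison was chosen after its values were seen. Of 363 regions with a peak in all 4 T47D and A549 libraries, 24 had no peak in any PC-3 or HCT-116 library, and PPP1R3C was the second strongest of the 24, with a geometric mean percent of 2.68. The strongest, a region from 87822790 on chromosome 16 whose nearest start is that of KLHDC4, had 2.49, and the median of the 24 was 25.5.

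**Figure D3:**
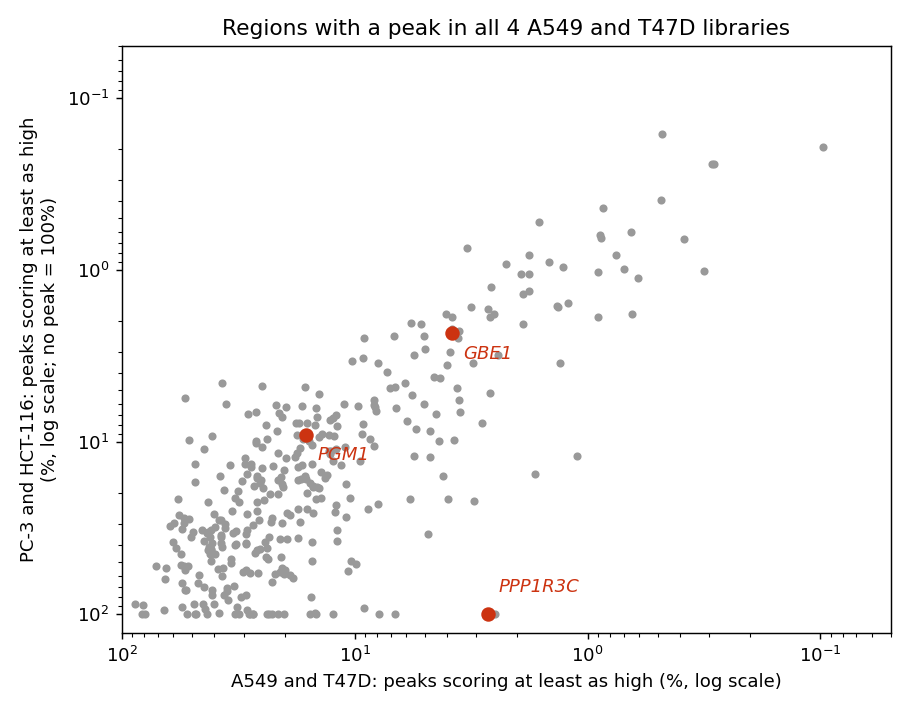
Each point is 1 of 363 regions with a peak in all 4 T47D and A549 libraries. The horizontal axis is the geometric mean, over those libraries, of the percent of peaks scoring at least as high, and the vertical axis the same over the 4 PC-3 and HCT-116 libraries with a missing peak set to 100%, both on log scales with strong peaks to the right and top. PPP1R3C lies at 2.68% on the horizontal axis and at 100% on the vertical axis, next to the region nearest to KLHDC4 at 2.49%, while GBE1 (3.81%, 2.34%) and PGM1 (16.1%, 9.10%) lie among the regions bound in all lines.

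PPP1R3B (ENSG00000173281.5_8, chr8:8993765-9009084, minus strand), the other targeting subunit, had weak peaks and a different set of lines. Its sites in A549 and HCT-116 cells covered the start, within 9007576 to 9008933 on chromosome 8 (1358 bp). A549 cells gave scores of 85.4 (rank 960, 54.3%) and 84.0 (rank 718, 56.5%), and HCT-116 cells 155 (rank 1086, 28.7%) and 83.6 (rank 1077, 56.3%). PC-3 replicate 2 alone had a peak there, at 53.0 (rank 2713, 93.8%), close to the lowest score of its list. No peak was listed in PC-3 replicate 1 or in T47D cells, whose nearest peaks were 2426776 and 1687756 bp from the gene. The means of A549 (55.4 ± 1.58%) and HCT-116 cells (42.5 ± 19.5%, SD, n = 2 each) overlapped in their values, and by rank in the list the order was the opposite. A549 was the only line in which both targeting subunits had a site.

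PYGL (ENSG00000100504.17_8, chr14:51324609-51411201, minus strand), the breakdown enzyme of the list, had its highest-ranked peaks in HCT-116 cells, by percent and by rank in the list. Peaks over its start lay within 51410403 to 51412179 on chromosome 14 (1777 bp), with midpoints at -257 to -6 bp. HCT-116 cells gave scores of 340 (rank 418, 11.0%) and 217 (rank 369, 19.3%), and A549 cells 59.3 (rank 1460, 82.6%) and 60.3 (rank 1014, 79.8%). The means were 15.2 ± 5.84% and 81.2 ± 1.94% (SD, n = 2 each), and the values of HCT-116 and A549 cells did not overlap. A single replicate had a peak in the other lines, with a score of 71.5 (rank 680, 65.3%) in PC-3 replicate 1 and 62.2 (rank 2212, 76.0%) in T47D replicate 2.

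**Figure D4:**
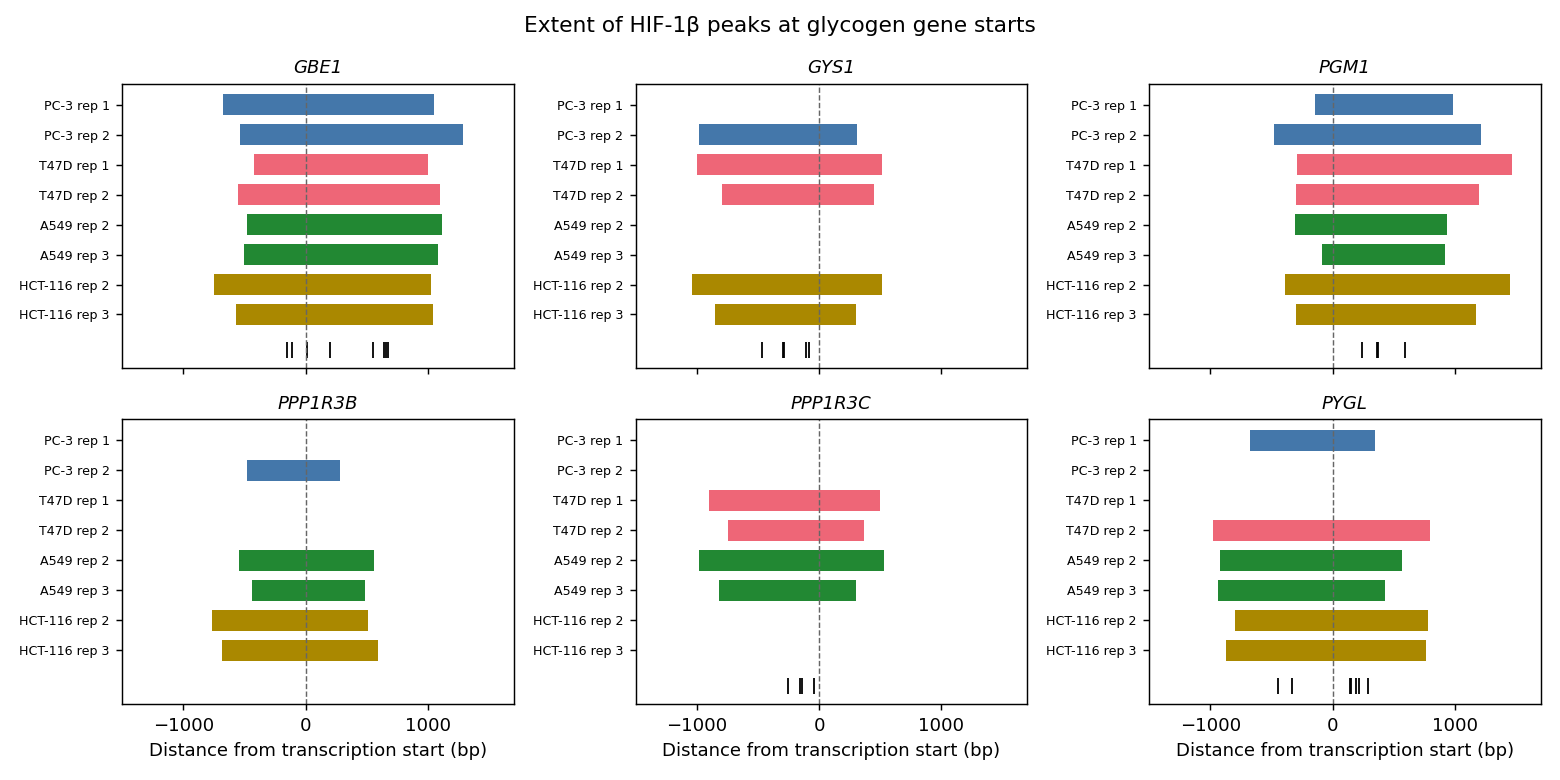
Bars show the extent of the peak over each gene start in each library, as distance in bp from the start of the canonical transcript (dashed line), with positive distances inside the gene. Black ticks mark ACGTG or GCGTG within the interval shared by all peaks of the gene and are not plotted for PPP1R3B. Peaks at GBE1 and PGM1 are present in all 8 libraries with midpoints inside the gene, and those at PPP1R3C occur in T47D and A549 only, with midpoints between -262 and -189 bp.

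The core sequence, searched as ACGTG and GCGTG on both strands of GRCh37 with CACGTG counted once, was present in the 6 regions at the members' starts that were a site in some line. Over whole regions, GBE1 held 9 (6 ACGTG and 3 GCGTG), PYGL 9 (5 and 4), PGM1 8 (3 and 5), GYS1 6 (1 and 5), PPP1R3C 6 (5 and 1) and PPP1R3B 4 (2 and 2). The median over all sites of any line was 4, with quartiles of 2 and 7, and 96.6% of those sites held at least 1, so that presence alone does not set the members apart. Per kb, the members held between 2.95 (PPP1R3B) and 5.06 (PYGL), against a median of 2.71 over all sites, with quartiles of 1.60 and 4.12. All sites were not limited to those at gene starts, so this comparison is not matched for position. In the central 200 bp of the merged region, whose middle differs from that of the interval used for the windows shown above, and where 65.5% of all sites held a core, PPP1R3C held 3, GYS1 2 and GBE1 1, while PGM1, PPP1R3B and PYGL held 0. Cores of PGM1 lay -51 and -42 bp from the middle of the shared interval, so this count depends on which middle is taken. PYGL had as many cores as GBE1, although its peak ranked lower in each of the 6 libraries that had one. A match of these letters is a description of the sequence and does not show that HIF bound there.

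The regions most like the members in their pattern over the 8 libraries were found by Euclidean distance of log10 percent. For GBE1 these were a region 363 bp from the start of VGLL4 (distance 0.482), one 50960 bp from the start of TMEM63B (0.570) and one at the start of HILPDA, a lipid droplet protein (0.592), where the median over regions was 2.08. For PGM1 they lay at the starts of ZC3HAV1L (0.387), R3HCC1L (0.406) and PFKL, the liver form of the glycolytic enzyme phosphofructokinase (0.424), with a median of 1.19. The VGLL4 region ranged from 1.69 to 6.77% and the PFKL region from 4.54 to 27.1% over the libraries.

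Of 26 other genes of glycogen metabolism, 2 had a site within 25 kb in PC-3, 5 in T47D, 2 in A549 and 3 in HCT-116 cells. The shares over all protein-coding genes within 25 kb, 7.07%, 16.0%, 6.01% and 14.2% in the same order, are near the shares that these counts make up. Within 2 kb of a start the counts were 2, 4, 2 and 3 of 26. These make up larger shares than the 2.57%, 7.70%, 2.07% and 6.84% of all genes. Among the 12 genes of synthesis and its regulators, only PPP1R3E and PPP1R3G, which encode further targeting subunits of protein phosphatase 1, had a site. PPP1R3E had a site in every line, within 23769891 to 23772037 on chromosome 14, where BCL2L2, an inhibitor of apoptosis, also starts. Its peaks were at 19.3 and 13.6% in PC-3, 5.75 and 7.63% in T47D, 50.9 and 18.4% in A549 and 4.41 and 6.85% in HCT-116 cells. PPP1R3G had one in PC-3 (1.44 and 1.07%), A549 (8.65 and 2.05%) and HCT-116 cells (3.25 and 4.44%), within 5084055 to 5085878 on chromosome 6, while in T47D cells replicate 2 alone had a peak, at 42.0%. A549 was the only line with a site at both PPP1R3C and PPP1R3G, a pair that was not named in advance.

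Of the 14 genes of breakdown in that list, 4 had a site, all of them in T47D cells, where 16.0% of all genes had one, and 1 of them also in HCT-116 cells, where 14.2% did. STBD1, which binds glycogen and anchors it to membranes, had peaks at 48.1 and 58.0% in T47D and 31.2 and 39.5% in HCT-116 cells. In T47D cells PHKA2, a subunit of liver phosphorylase kinase, had peaks at 54.9 and 81.4%, NHLRC1, the ubiquitin ligase malin, at 76.3 and 33.8%, and PYGB, the brain form of glycogen phosphorylase, at 24.2 and 16.3%. The PYGB site lay 7303 bp from the nearest start of the gene, and the other 3 lay at or within 2 kb of theirs.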

How the data were processed

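HIF-1β ChIP-seq had been performed in 4 lines with 2 replicates each. According to the submitters' processing notes, Trim Galore 0.3.3, BWA 0.7.5a-r405, SAMtools 0.1.19, Picard 1.106, bedtools 2.17.0 and MACS were used, on GRCh37 (hg19). The methods also name T-PIC, whose step cannot be seen in the lists. The authors deposited 1 peak list per library, each with a score of no stated scale. It starts close to 50, so weaker binding is missing, and without reads the precision of a score is unknown.

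The members and gene lists were chosen with earlier results of these data known. Peaks were set against GENCODE release 44 lifted to GRCh37. Replicate peaks overlapping by at least 1 bp were merged into sites, as the study's methods require presence in more than a single dataset. Regions with a peak in all 8 libraries were compared between lines by an exact permutation test of log10 percent rank over 105 pairings, with Benjamini-Hochberg adjustment and a false discovery rate of 0.05. No test was made of member counts. limma 3.58.1 in R 4.3.3 was added later as a second test. The overlap counting and both tests were tested on simulated data. The simulated differences between lines were set larger than the simulated noise. These runs thus do not show how either test performs on these lists. Python 3.11.15, NumPy 2.4.6, pysam 0.24.0, Matplotlib 3.10.9, bedtools 2.31.1 and samtools 1.23.1 were used. Promoters in RefSeq were searched for the core sequence on GRCh38.p14, and no coordinate was moved between builds.

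Genes were named by a rule: the 8 members, genes of the list of 26 with a site, the gene with the nearest start to each member site, and the 3 regions most like each member bound in all libraries. KLHDC4 and the neighbours of unmatched peaks were named after their values were seen. Sequence was shown for members with a site, except PPP1R3B. Alternatives were another overlap, a peak of either replicate, the higher-scoring 50% of each list, each replicate left out, other scales of rank and score, the central 200 bp of sites, and settings added later.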

Additional observations from a re-analysis of the deposited data

How the results depend on the processing

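Of 112 alternative values, 98 kept their side of the threshold or stayed within 1.5 times the reported count. Of the rest, 11 counts moved and 3 adjusted p passed the threshold. A reversal of direction was not assessed. In PC-3 cells a peak of either replicate gave 5 members with a site, within 25 kb and at their own start, instead of 2. Leaving out 1 replicate gave 3 to 5 within 25 kb (5 without PC-3 replicate 1) and 3 to 4 at the start (4 without it), 4 to 5 in T47D, and 5 in A549 and HCT-116 cells. In A549 cells the higher-scoring 50% of each list gave 3 members by both counts, and a score of at least 100, added later, gave 3 within 25 kb. The core sequence was in the central 200 bp of 4 of 7 member sites, 1 of which covers the start of BAX, and of 3 of the 6 at the members' own starts. The exact permutation test called 0 regions under each alternative run, with adjusted p between 0.110 and 0.652 for PGM1 and between 0.0752 and 0.843 for GBE1. limma called 152, and 140 with libraries centred. With the replicate number as a block (replicate block) it called 150, with adjusted p = 0.0218 for PGM1 and 0.474 for GBE1. The samples share only a number: deviations of same-numbered libraries correlated at 0.0617 between PC-3 and T47D and 0.146 between A549 and HCT-116, across 233 regions, which are not independent. The fits with limma, centring, rank in the list and regions with a peak in 4 or more libraries were added later, and the last rests on missing peaks set to 100%. Lists without reads cannot tell absent binding from binding below the listed scores.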

Other observations

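The 6 peaks of the extended gene bodies that did not cover the start of a member lay at or near other genes. In HCT-116 cells a site within 49457507 to 49458701 on chromosome 19 covered the start of BAX, which promotes apoptosis, with scores of 106 (44.7%) and 60.8 (80.6%), and its midpoint was 38511 bp from the start of GYS1. Between BAX and GYS1, the start of FTL, the light chain of ferritin, was covered by a peak in single replicates of 3 lines, with scores of 92.5 in PC-3 replicate 2 (46.8%), 62.0 in T47D replicate 2 (76.5%) and 115 in HCT-116 replicate 2 (40.3%). No line had a site at FTL. The only peak of PC-3 replicate 2 in the extended body of PYGL, from 51362781 to 51363420 on chromosome 14, scored 76.4 (59.3%), lay 2323 bp from the start of ABHD12B and held 0 copies of the core sequence.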
